A study of Mus musculus with 6 samples.

Results

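ATP-binding cassette (ABC) transporter genes were examined in mouse liver and liver tumour RNA. A feature of the array was taken as a member when its description named a mouse gene as an ATP-binding cassette protein, or when its current symbol began with Abca, Abcb, Abcc, Abcd, Abce, Abcf or Abcg. This gave 36 genes on 40 features, out of 9955 named genes and 20868 features on the array. Abca8b, Abcb8, Abcc8 and Abcd2 had a pair of features each, and each of these 4 genes is given by its brighter feature unless stated. Of 50 Abca to Abcg protein-coding genes in the RefSeq table, 16 had no member feature and were not analysed here, among them Abcc4, Abcc10 and Abcc12. The members also included the peptide transporter genes Tap1 and Tap2.

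The study asked which genes depend on the constitutive androstane receptor (CAR), the nuclear receptor encoded by Nr1i3, and are induced as liver tumours develop. All groups were mice of the C3H/HeNCrlBR(C3He) background strain at 39 weeks of age, and all had been given DEN (diethylnitrosamine), a carcinogen that starts liver tumours. There were 4 groups. WT liver and liver tumours of WT mice came from animals that drank PB (phenobarbital, a tumour promoter that activates CAR) once DEN had been given. CAR-KO liver, from mice lacking the receptor, came with that same PB treatment or from mice on DEN without PB. They were hybridised on 6 Agilent 2-colour arrays in 3 pairs of 2, with Cy3 and Cy5 swapped within a pair. PB-treated CAR-KO liver was in every pair, so the comparisons share that group. WT liver without PB was not analysed here, nor was surrounding tissue matched to the tumour, and the sources used here do not say how many animals were pooled in a sample or whether the arrays of a pair held separate extracts. What a p-value measures here is the spread between arrays with swapped dyes, and that spread may be technical.

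ABC proteins use the energy of ATP to move substrates across membranes. In hepatocytes, members of the canalicular membrane secrete bile salts, phospholipid, sterols and drug conjugates into bile, and members of the basolateral membrane return conjugates and other organic anions to blood. Other members supply fatty acids to peroxisomes, porphyrins to mitochondria or peptides to antigen presentation, and a few have no membrane part and act on ribosomes.

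Values below are log2 ratios of the first-named group over the second, after background correction and loess, given for each array of a pair and then as the mean ± standard error (SE) of the limma fit over all 6 arrays. A gene was called when its Benjamini-Hochberg adjusted p over all features tested was under 0.05. Fewer cells of a type and less RNA per cell cannot be told apart in RNA from whole tissue. Between 84.44% and 98.67% of spots that were not controls were well above background per channel. Array 2 of the tumour pair had median local backgrounds of 288.0 (Cy3) and 299.0 (Cy5), against 53.0 to 62.0 on the other 5 arrays. Over all features, the correlation of the turned ratios between the arrays of a pair was 0.0294 in the WT liver pair, -0.347 in the PB pair and 0.391 in the tumour pair, a description across features that share arrays. The hepatocyte genes Ttr, Hnf4a and Apoa1 were well above background in all 12 channels. The Nr1i3 feature read 0.79 ± 0.16 in WT over CAR-KO liver (1.08 and 0.49; limma adjusted p = 0.412), and since its position relative to the deleted part is not given it does not check the genotype. Cyp2b10, a cytochrome P450 gene long used as a readout of CAR, read 1.89 ± 0.16 in that pair (2.07 and 1.72; limma adjusted p = 0.00746) and 0.01 ± 0.16 for PB in CAR-KO liver.

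Abcc5, Abcc2 and Abcb6 were called higher in WT tumour than in CAR-KO liver, and they were the only called members in any of the comparisons. The groups of that pair differ in genotype as well as in being tumour or liver. Genotype and tumour thus cannot be told apart in its ratios. Promoter sequence was at hand for 25 of the 36 genes, Abcc5, Abcc2 and Abcb6 among them. The 250 bases before the gene start are shown for the called genes, and for Abcb11, the bile salt export pump gene of the same canalicular membrane as Abcc2, which was not called. They are from RefSeq (GRCm38.p6), 5′ to 3′ on the gene's strand. Capitals mark matches on either strand to AGGTCA, the half-site bound by many nuclear receptors, or to TGACNNNGC, the core of the antioxidant response element bound by NRF2.
Abcc2 (chr19:43782058-43782307, plus strand): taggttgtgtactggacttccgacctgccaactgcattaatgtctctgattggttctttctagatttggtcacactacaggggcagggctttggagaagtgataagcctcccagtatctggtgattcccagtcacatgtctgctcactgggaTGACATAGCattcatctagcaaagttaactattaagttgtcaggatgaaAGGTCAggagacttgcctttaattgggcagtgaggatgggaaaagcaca
Abcc5 (chr16:20426395-20426644, minus strand): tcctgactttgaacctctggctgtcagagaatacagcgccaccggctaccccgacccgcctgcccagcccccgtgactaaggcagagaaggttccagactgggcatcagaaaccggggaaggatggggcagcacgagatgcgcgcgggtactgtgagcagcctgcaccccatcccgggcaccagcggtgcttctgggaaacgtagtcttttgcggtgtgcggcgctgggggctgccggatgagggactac
Abcb6 (chr1:75180393-75180642, minus strand): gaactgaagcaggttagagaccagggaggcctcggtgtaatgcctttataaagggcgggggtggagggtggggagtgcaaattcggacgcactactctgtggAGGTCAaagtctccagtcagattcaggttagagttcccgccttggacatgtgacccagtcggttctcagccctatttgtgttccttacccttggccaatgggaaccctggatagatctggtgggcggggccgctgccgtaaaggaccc
Abcb11 (chr2:69342617-69342866, minus strand): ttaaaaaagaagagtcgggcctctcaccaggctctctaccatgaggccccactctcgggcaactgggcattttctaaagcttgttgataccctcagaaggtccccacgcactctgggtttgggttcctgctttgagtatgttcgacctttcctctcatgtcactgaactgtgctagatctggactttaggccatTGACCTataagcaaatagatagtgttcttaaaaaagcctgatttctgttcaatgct

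AGGTCA was present in 14.0% of 32851 promoter windows of this length and in 4 of the 25 member windows, those of Abcb11, Abcb6, Abcc2 and Abcg2. TGACNNNGC was present in 10.2% of all windows and, among the members, in Abcc2, where it began 98 bases before the start. The AGGTCA match of Abcc2 began 49 bases before the start and that of Abcb6 148 bases before it, both on the gene's strand. In Abcb11 the match lay on the other strand, between 56 and 51 bases before the start. The full direct repeat known as DR4, AGGTCA repeated in 1 direction on either strand with 4 bases between the copies, an arrangement recognised by CAR with its partner RXR, was present in 0.0152% of all windows and in 0 member windows. Neither AGGTCA nor TGACNNNGC was in the Abcc5 window. The motifs do not overlap each other in the Abcc2 window, and a match or its absence describes these letters in this window only. Abcb6 and Abcb11 both held the half-site, and their ratios in the tumour pair were 0.79 and -0.17. Any link between these motifs and the ratios was not tested.

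With WT tumour set over CAR-KO liver, each PB-treated, 3 of the 36 genes were called higher (8.33%) and 0 lower, where 2.53% of all 20744 features tested were called higher and 0.839% lower. At an unadjusted p under 0.05, 10 members were higher (27.8%) and 0 lower, against 11.4% and 12% of all features. The median log2 ratio of the 36 genes was 0.05, with 20 above 0 and 16 below, beside a median of -0.01 over all features. Both arrays gave the same sign for 22 of the 36. Without array 2 of the tumour pair, 10 members were called, 5 higher (Abcc2, Abcc5, Abcb6, Abcb4 and Abcc3) and 5 lower (Abcf1, Abcd2, Abca1, Abca4 and Abcd3), in a fit that rests on 1 tumour array assumed to vary like the other arrays and calls 8.68% of all features higher and 14% lower. The count was 9 with median centring (7 higher, 2 lower, where 11.4% and 8.5% of all features were called), and 0 with Agilent's processed signals, with the deposited log ratios, or in a fit of this pair alone.

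**Figure D1:**
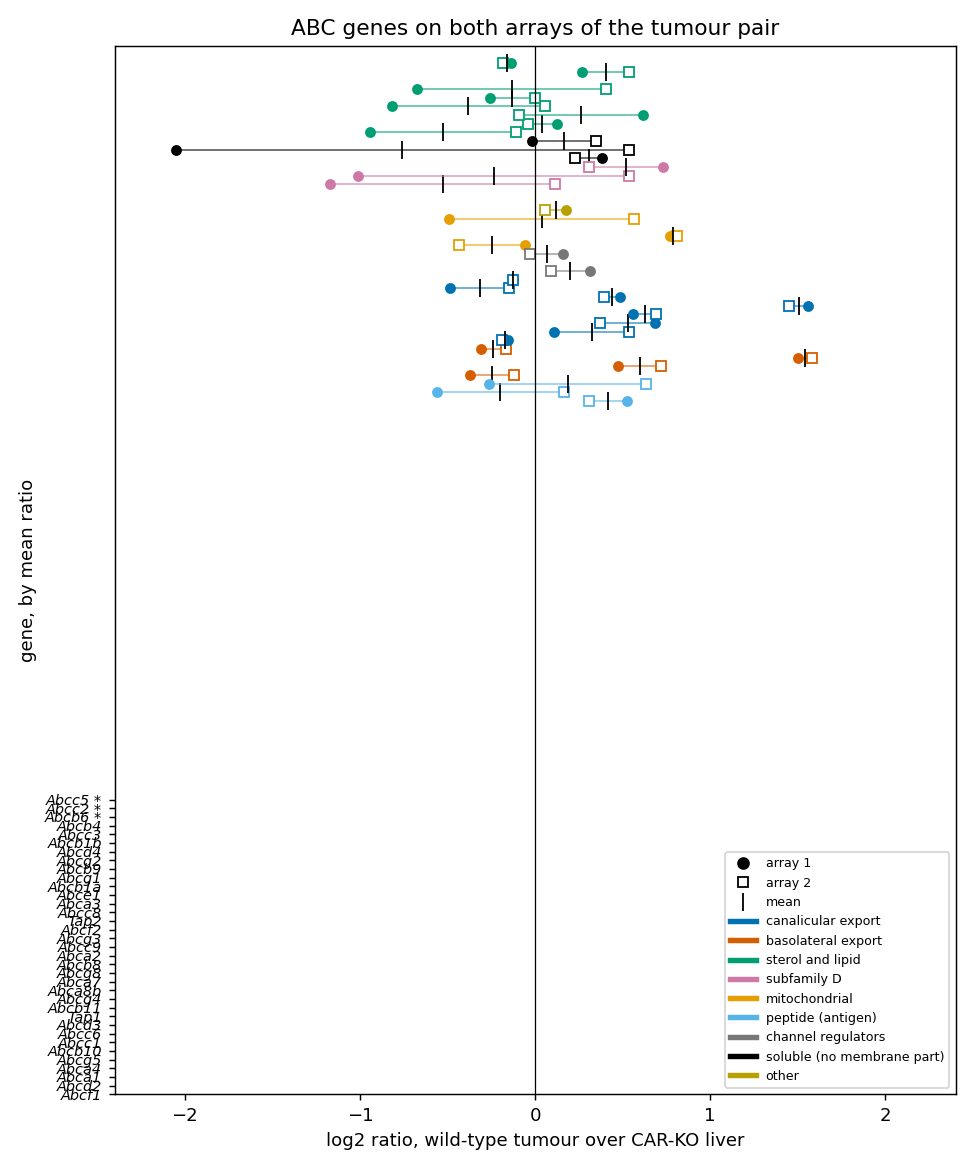
The plot gives, for the ABC genes reported by name, the log2 ratio of WT tumour over CAR-KO liver on array 1 (filled circle) and array 2 (open square) of the dye-swapped pair and their mean (bar), coloured by role, with a star for an adjusted p under 0.05. The points are not drawn level with the gene names, which are listed by mean, so a point cannot be matched to a name in the plot. Each star is part of a gene name and belongs to that gene. By value, Abcc5, Abcc2 and Abcb6 had the highest means with arrays close together, and Abcf1 spanned -2.05 to 0.54.

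Of the canalicular exporters, 8 of 8 were measured and 1 was called higher, with a median log2 ratio of 0.38. Abcc2 encodes MRP2, which secretes bilirubin glucuronides and glutathione conjugates into bile. Its ratios were 1.56 and 1.45, above 1 on both arrays. The mean was 1.51 ± 0.15, a 2.84-fold higher level in tumour than in CAR-KO liver (limma adjusted p = 0.00286). Abcb4, which flips phosphatidylcholine into the canaliculus, read 0.56 and 0.69 with a mean of 0.63 ± 0.19 that was not called (limma adjusted p = 0.119). Abcb1b, one of the mouse multidrug P-glycoproteins, read 0.68 and 0.37 (0.53 ± 0.17; limma adjusted p = 0.136). Its close relative Abcb1a was not well above background in any CAR-KO channel of this pair and was above it on 1 array in tumour. It read 0.11 and 0.54 (mean 0.32, 95% interval -0.06 to 0.70) and was not called (limma adjusted p = 0.273). With so few channels above background, no direction is given for it. The features' sequences were not used here, so signal shared between Abcb1a, Abcb1b and Abcb4 could not be examined. Abcg2, the breast cancer resistance protein that exports drugs and sulphate conjugates, read 0.48 and 0.39 (0.44 ± 0.16; limma adjusted p = 0.157). Bile salt and sterol exporters had means below 0 and were not called. Abcb11 read -0.15 and -0.19, with a mean of -0.17 and a 95% interval from -0.54 to 0.20. Abcg5 and Abcg8, which form the sterol exporter together, read -0.49 and -0.15 (mean -0.32, interval -0.67 to 0.04) and -0.12 on both arrays (mean -0.12, interval -0.49 to 0.24). All 8 genes had the same sign on both arrays, 5 above and 3 below 0. Under 16 alternative settings of the processing, Abcb11, Abcg5 and Abcg8 kept their sign in 15, 15 and 14. Their ratios there ranged from -0.30 to 0.52, from -0.40 to 0.22 and from -0.27 to 0.04.

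Of the basolateral exporters, 4 were measured and 1 was called higher. Abcc5 encodes MRP5, an exporter of cyclic nucleotides and other organic anions. It read 1.5 and 1.58, the highest mean of the 36 genes at 1.54 ± 0.16 (2.91-fold; limma adjusted p = 0.00337). Abcc3 encodes MRP3, which moves glucuronides and bile salts from hepatocytes to blood. It read 0.47 and 0.72 (0.60 ± 0.19; limma adjusted p = 0.134), so it was above 0 on both arrays and not called. Abcc1 and Abcc6 lay below 0 on both arrays, at -0.37 and -0.12 (mean -0.24) and at -0.31 and -0.17 (mean -0.24). Neither was called, with limma adjusted p = 0.430 and 0.505.

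Of the mitochondrial members, 3 were measured. Abcb6, a porphyrin transporter, read 0.77 and 0.81 and was called at 0.79 ± 0.15 (1.73-fold; limma adjusted p = 0.0392). This was the weakest of the calls. Without array 1 of the tumour pair it kept a log2 ratio of 0.78 with a limma adjusted p of 0.086. Leaving out an array of the WT liver or PB pair does not touch its value, and gave an adjusted p of 0.0992 or 0.108. Abcb10, needed for haem synthesis in red cell precursors, read -0.06 and -0.43, and Abcb8 read -0.49 and 0.57.

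**Figure D2:**
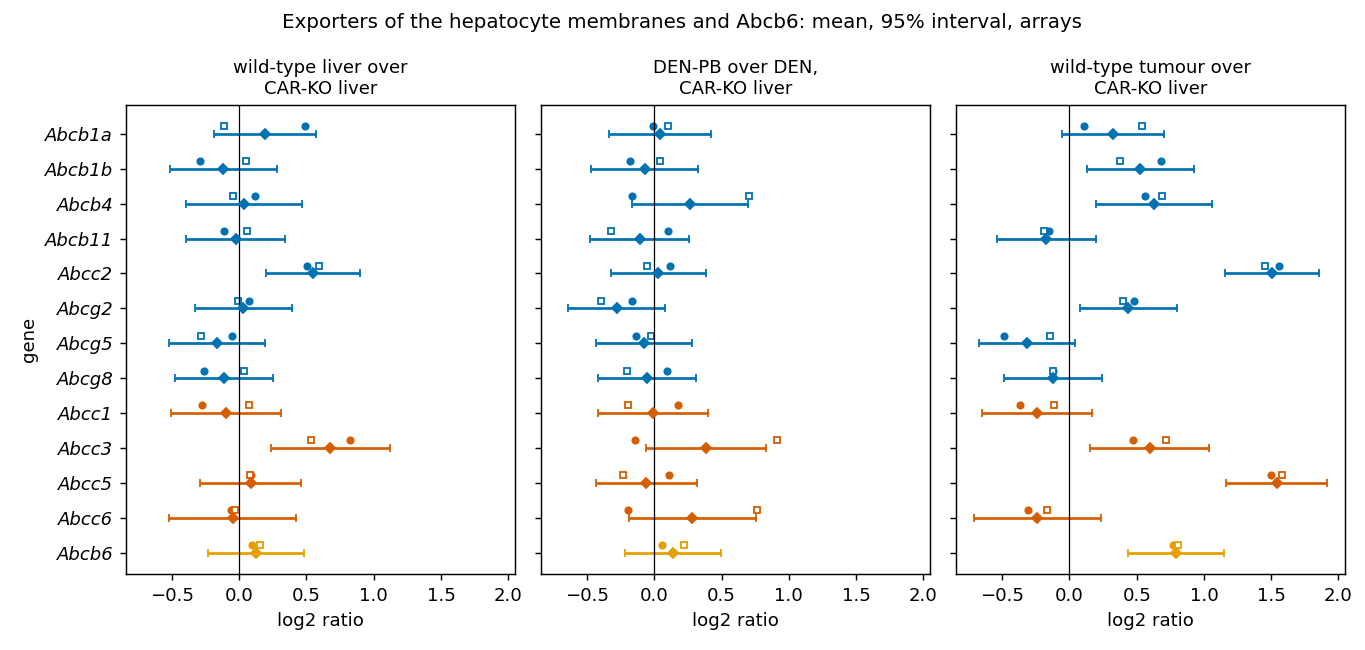
Panels show the 3 directly hybridised comparisons, with log2 ratios for the canalicular exporters (blue), basolateral exporters (red) and Abcb6 (orange): diamonds are limma means with 95% intervals, and circles and open squares are arrays 1 and 2. In the tumour panel Abcc2 (1.51) and Abcc5 (1.54) stand highest, while in the WT liver panel Abcc5 is at 0.08 and Abcc2 at 0.55.

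None of the remaining role groups held a called gene in the tumour pair. Among 8 genes of sterol and lipid transport the median was -0.13, with 3 above and 5 below 0. Abcg1, which passes cholesterol to HDL, was the highest of them (0.27 and 0.54; mean 0.40 ± 0.17; limma adjusted p = 0.201). Abca1, which loads cholesterol and phospholipid onto apolipoprotein A-I, was the lowest (-0.94 and -0.11; mean -0.52 ± 0.23; limma adjusted p = 0.219). Their arrays differed more than those of the called genes. Abca4, best known as a retinoid transporter of photoreceptors, was dim, above background in 5 of 12 channels, and read -0.82 and 0.06. Abca2, Abca3 and Abca7 had means of 0.04, 0.26 and -0.13, and Abcg4 read -0.16.

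In subfamily D, Abcd4, which takes part in lysosomal cobalamin export, read 0.73 and 0.31 (0.52 ± 0.21; limma adjusted p = 0.198). The peroxisomal fatty acid transporter gene Abcd2 read -1.17 and 0.12, and Abcd3 -1.01 and 0.54. Abcd2 and Abcd3 thus had arrays of opposite sign. Among the peptide transporters, the lysosomal Abcb9 read 0.52 and 0.31 (0.42 ± 0.16; limma adjusted p = 0.174), Tap1 -0.56 and 0.16, and Tap2 -0.26 and 0.63. Tap1 and Tap2 together form the transporter that feeds peptides to MHC class I. The potassium channel regulators Abcc8 and Abcc9 had means of 0.20 and 0.07. The soluble members Abce1, which recycles ribosomes, and Abcf2 had means of 0.31 and 0.17. Abcg3, a rodent relative of Abcg2, read 0.18 and 0.06.

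Abcf1, which acts in translation initiation, had the lowest mean of all, -0.76 ± 0.37, but read -2.05 on array 1 and 0.54 on array 2. Its limma adjusted p was 0.258. The arrays differed by over 1 in log2 ratio for 5 of the 36 genes, all of them lower on array 1, and the median gap was 0.27. The 8 members not above background in all 12 channels were Abcf1, Abcd3, Abca1, Abca4, Abca8b, Abcb1a, Abcc1 and Tap2. Abcd2 and Abcb8, whose arrays also differed by over 1, were above background in all 12.

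**Figure D3:**
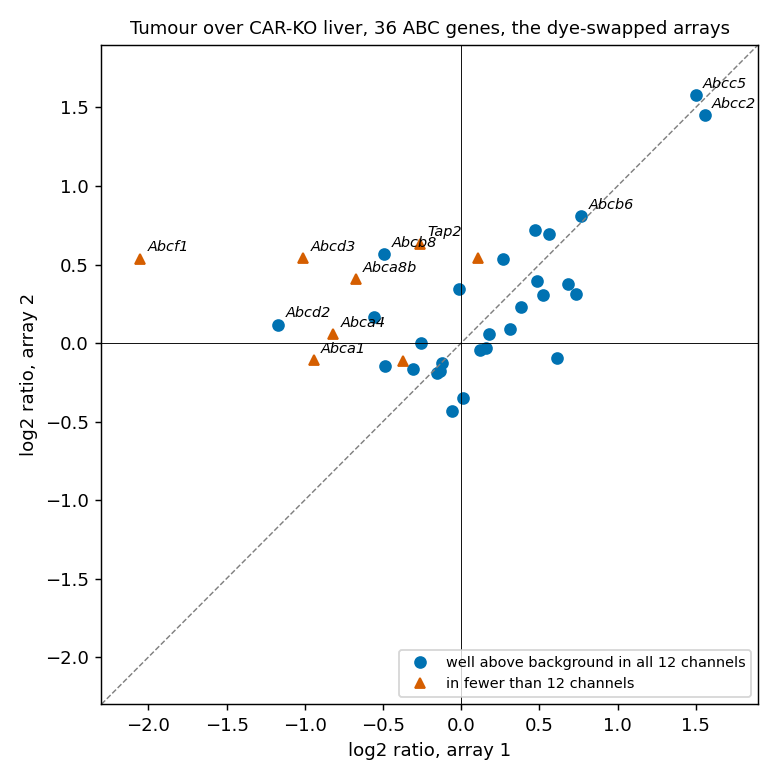
Each point is 1 of the 36 ABC genes, with its log2 ratio of WT tumour over CAR-KO liver on array 1 (x axis) and array 2 (y axis), and the dashed line marks equal values. Circles are genes well above background in all 12 channels and triangles are the 8 that were not. Abcc5, Abcc2 and Abcb6 lie near the line, and Abcf1, Abcd3 and Abcd2 lie far above it.

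The features of a gene disagreed in sign in the tumour pair for all 4 genes with a pair of features, and none of these features was called. The means were -0.13 and 0.20 for Abca8b, 0.04 and -0.05 for Abcb8, 0.20 and -0.22 for Abcc8, and -0.53 and 0.09 for Abcd2, the brighter feature first.

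With WT liver set over CAR-KO liver, each PB-treated, which asks what CAR changes outside the tumours, limma called 0 of the 36 genes higher and 0 lower, where 0.0916% of all 20743 features were called higher and 0.00964% lower. At an unadjusted p under 0.05, 2 members were higher, Abcc3 and Abcc2 (5.56%), and 0 were lower, against 1.81% and 0.458% of all features. Abcc3 had the larger mean, with 0.82 and 0.53 on the arrays (0.68 ± 0.19, 1.60-fold; limma adjusted p = 1). Abcc2 read 0.51 and 0.59 (0.55 ± 0.15, 1.47-fold; limma adjusted p = 1). Both exporters were thus above 0 on both arrays, but did not pass the adjustment. Abcg4 came after them, at 0.52 and 0.26 (0.39 ± 0.19). The second Abca8b feature was not well above background in either CAR-KO channel of this pair, so no fold bound is given for it. That feature read 0.31 and 0.54 (mean 0.43, interval 0.04 to 0.81) and was not called (limma adjusted p = 1). The brighter Abca8b feature had a mean of 0.19.

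The genes called in the tumour pair other than Abcc2 were near 0 in this pair of WT and CAR-KO liver. Abcc5 read 0.09 and 0.08 (mean 0.08, 95% interval -0.29 to 0.46), and Abcb6 0.09 and 0.15 (mean 0.12, interval -0.23 to 0.48). Abcb11 had a mean of -0.03 (interval -0.40 to 0.34), Abcb4 0.03, Abcg2 0.03, Abcb1b -0.12 and Abcg8 -0.11. Abcc1 and Abcc6 had means of -0.10 and -0.05. The lowest members with the same sign on both arrays were Abcf1 (-0.29 and -0.35), Abcg5 (-0.05 and -0.28) and Abcd2 (-0.03 and -0.20). Abcb1a read 0.49 and -0.11, with no CAR-KO channel and 1 WT channel well above background, so no direction is given for it. Over the 36 genes the median was -0.01 and over all features -0.02, and 14 members had the same sign on both arrays.

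In CAR-KO liver, DEN with PB over DEN alone asks what phenobarbital does in the absence of CAR. No member passed: limma called 0 higher and 0 lower, as it did 0% and 0% of all 20742 features, and 0 members reached an unadjusted p under 0.05, against 2.21% of all features on the higher side and 0.516% on the lower. The largest mean was that of Abcc3 at 0.39 ± 0.19, from arrays of opposite sign (-0.14 and 0.91; 95% interval -0.06 to 0.83). Abcc6 and Abcb4 showed the same split, with -0.20 and 0.76 and with -0.17 and 0.71. Array 2 was the higher in each of these. Of the 36 genes, 10 had the same sign on both arrays, in a pair whose arrays correlated at -0.347 over all features. Among those 10, Abcc8 (0.16 on both), Abcb6 (0.06 and 0.22) and Abca8b (0.16 and 0.06) were the highest. Abcg2 (-0.16 and -0.40), Abcc9 (-0.26 and -0.18) and Abca3 (-0.11 and -0.24) were the lowest. The dimmer Abcc8 feature had the other sign, at -0.05 and -0.17 (mean -0.11), and the dimmer Abca8b feature was split, at 0.45 and -0.26. Abcc2 had a mean of 0.03 (interval -0.32 to 0.38) and Abcc5 of -0.06 (interval -0.44 to 0.32). Abcb11, Abcb1b, Abcg5, Abcg8 and Abcc1 had means between -0.11 and -0.01. Abcb1a was not well above background in either group.

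WT tumour was set against WT liver indirectly, as the difference of their ratios to CAR-KO liver. In this comparison limma called 0 of the 36 genes higher and 0 lower, as 0% and 0% of all 20743 features. At an unadjusted p under 0.05, 4 members were higher (11.1%) and 0 lower, against 4.53% and 3.85% of all features. Abcc5 had a difference of 1.46 ± 0.23 (95% interval 0.93 to 1.99; limma adjusted p = 0.199), Abcc2 of 0.95 ± 0.21 (0.46 to 1.45; limma adjusted p = 0.327), Abcb6 of 0.67 ± 0.22 (0.16 to 1.17; limma adjusted p = 0.556) and Abcb1b of 0.65 ± 0.24 (0.09 to 1.21; limma adjusted p = 0.584). Abcc3 was at -0.08 (interval -0.71 to 0.55), having had like ratios in WT liver and tumour. The other exporters ranged from -0.19 (Abcc6) to 0.59 (Abcb4). The lowest members were Abcg4 at -0.55, Abca1 at -0.47 and Abcf1 at -0.44, and none was called. Without array 1 of the tumour pair, Abcc5 was called (1.58; limma adjusted p = 0.0190), as were 0.588% of all features on the higher side. Without array 2 of that pair, 6 members were called, Abcc5 and Abcc2 higher and Abca1, Abcd2, Abcd3 and Abcf1 lower, each resting on 1 tumour array. Over all features, 2.06% were called higher and 8.39% lower without that array, so the members' lower calls are to be read against that share.

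**Figure D4:**
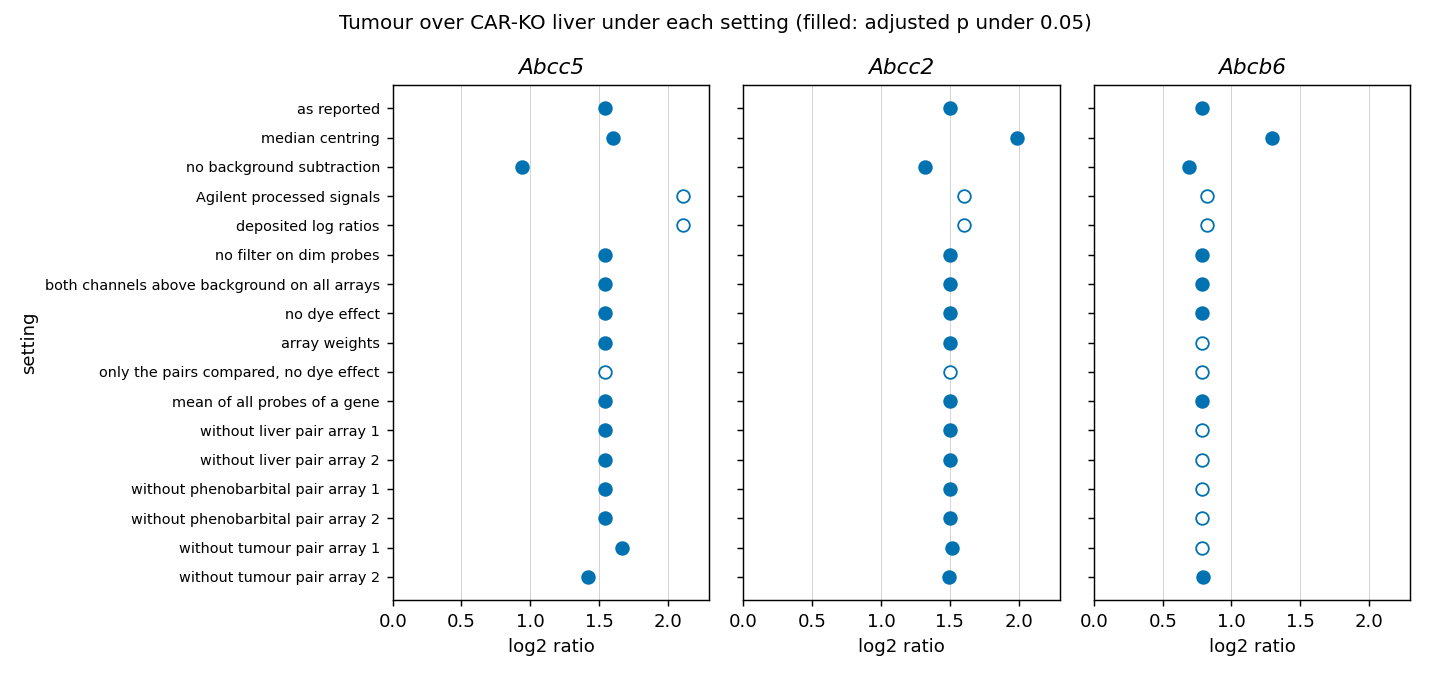
For Abcc5, Abcc2 and Abcb6, each point is the log2 ratio of WT tumour over CAR-KO liver under 1 setting of the processing (rows), filled where the adjusted p was under 0.05. Abcc5 ranges from 0.94 to 2.11 and Abcc2 from 1.32 to 1.99, each called under 13 of 16 alternatives, and Abcb6 from 0.69 to 1.29, called under 7.

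Genes that work beside the exporters were taken from lists of uptake, conjugation and regulatory partners. Of the uptake genes, the bile salt carrier Slc10a1 read -0.75 and -0.39 in the tumour pair and was not called. Of 20 conjugation genes 9 were measured, and 3 were called higher in the tumour pair. These were the glutathione transferase genes Gstm2 (3.40 ± 0.19) and Gsta1 (1.48 ± 0.16) and the oestrogen sulphotransferase gene Sult1e1 (1.95 ± 0.18). Gstm2 (2.34 ± 0.19) and Sult1e1 were also called in WT over CAR-KO liver. Of 12 regulators 11 were measured, and 2 were called higher in the tumour pair, Nr1i3 (1.71 and 1.9; mean 1.81 ± 0.16) and Nfe2l2 (1.35 and 1.33; mean 1.34 ± 0.21), which encodes NRF2. CAR-KO liver lacks the receptor that Nr1i3 encodes, so genotype and tumour cannot be told apart in its ratio. Set indirectly over WT liver, tumour had 1.02 ± 0.23 for Nr1i3 (limma adjusted p = 0.327) and 1.07 ± 0.30 for Nfe2l2 (limma adjusted p = 0.462). In WT liver over CAR-KO liver Nfe2l2 was at 0.27 ± 0.21 and not called. The bile acid receptor gene Nr1h4 read 0.43 and 0.21 in tumour over CAR-KO liver and was not called.

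Markers of other liver cells were read in the same RNA. In the tumour pair 1 of 5 measured bile duct markers was called higher, Krt19 (1.02 and 1.24; mean 1.13 ± 0.16; limma adjusted p = 0.0135), while Krt7, Epcam, Spp1 and Cftr had means from -0.23 to 0.05. None of the measured markers of hepatocytes (3), stellate cells (5), endothelium (6), macrophages (6) or lymphocytes (7) was called in any comparison, with ranges in the tumour pair of -0.26 to -0.12, -0.35 to 0.50, -0.26 to 0.10, -0.31 to 0.72 and -0.38 to 0.20. Krt19 had a mean of 0.02 in WT over CAR-KO liver, where Abcc5 was at 0.08. Its part in the ratios of Abcc5, Abcc2 and Abcb6 was not tested.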

How the data were processed

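The members, gene lists and tests were chosen with earlier results of these data known. The authors deposited scanner files with, for each spot, its mean signal and the median of its local background as intensity, per the file headers read by Agilent Feature Extraction 7.1.1 (5 arrays) or 7.5.1 (array 2 of the tumour pair); the submitters' processing notes name 7.5. The deposited value table holds log10 ratios of red over green, equal to those of the scanner files. Each array had 22393 spots, of which 1075 were controls.

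Intensities were corrected with normexp (offset 50), normalised by loess within arrays, turned so that the first-named group is on top, averaged per feature and fitted with limma 3.58.1 (R 4.3.3; 3 contrasts and a dye effect, 2 residual and 5.48 prior degrees of freedom). Outlier spots were left out. A feature was tested if a channel was well above background on 2 arrays or more, as all 40 members were. P-values are 2-sided and adjusted over all features. The number of arrays limits the precision.

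Of the 40 member features, 29 were named by accession, 7 by symbol, 2 by an older symbol and 2 by full name. The text names every called gene, the canalicular and basolateral exporters, and the 3 largest changes each way that both arrays share; for the indirect comparison, which has no arrays of its own, these are by size. Further members are named to cover their roles. Partners of conjugation and regulation are named where called; Slc10a1 and Nr1h4 were added after their values were seen, as were Krt7, Epcam, Spp1 and Cftr. Some items are not reported here. The scripts were tested on simulated data.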

Additional observations from a re-analysis of the deposited data

How the results depend on the processing

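In the WT liver and PB comparisons, 0 members were called under every alternative run. In WT tumour over CAR-KO liver, where 3 were called, median centring in place of loess called 9 (7 higher, 2 lower), while Agilent's processed signals called 0, the deposited log ratios 0, and a fit of that pair alone without a dye effect 0, the last with fewer arrays; for the others the cause was not tested. Leaving out 1 array at a time gave 2 to 10 calls there and 0 to 6 in the indirect comparison, and array 2 of the tumour pair gave the highest count in both. Over all features, the tumour pair had 524 higher and 174 lower calls as reported, 2370 and 1763 with median centring, 0 and 0 with processed signals, 198 and 42 with array weights, and 1798 and 2909 without array 2 of the tumour pair. No member's call changed direction under any alternative run. Both groups of a comparison lay on each array, so their ratio is paired within the array. The labels do not number the arrays of a pair, so arrays of separate pairs were not matched. Members near background, such as Abcb1a and Abca4, have limits rather than ratios in some channels.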

Other observations

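A further 9 features were described only by likeness to an ABC protein, without a mouse gene named, and were not counted as members. One of them, described as the homolog of human sub-family C member 4 (MRP4, a basolateral exporter), was singled out after its values were seen. In the tumour pair it read 0.82 and 1.22, with a mean of 1.02 ± 0.16 (limma adjusted p = 0.0167). It read 0.28 and 0.10 in the WT liver pair, and for PB in CAR-KO liver 0.11 and 0.17, not called in either. The other 8 were not called in any comparison. In the tumour pair the feature described as similar to sub-family F member 1 read 0.18 and 0.87 (mean 0.52 ± 0.18; limma adjusted p = 0.151), on the other side of 0 from the mean of the Abcf1 feature, -0.76. A feature described as weakly similar to sub-family A member 3 read -2.14 and 0.14 (mean -1.0 ± 0.39; limma adjusted p = 0.181). For the member 4 homolog, the indirect difference between tumour and WT liver was 0.83 ± 0.22 (limma adjusted p = 0.416).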
